A study of Mus musculus with 6 samples.

Results

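Desmosomes are the spot junctions that rivet epithelial cells together, and hemidesmosomes fasten the basal cells of an epithelium to the basement membrane. In a desmosome, cadherins of the desmoglein and desmocollin families bind the neighbouring cell, plakoglobin and plakophilins gather beneath the membrane, and desmoplakin ties this plaque to keratin filaments. Hemidesmosomes reach the same filaments through plectin and the epithelial form of dystonin. In layered epithelia and in the basal layer of the mammary gland, the cadherins Dsg3 and Dsc3 and the plakophilin Pkp1 are prominent, whereas Dsg2, Dsc2 and Pkp2 occur in nearly every epithelium, simple ones included.

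Described here are 10 genes of these junctions, chosen by name: the desmogleins Dsg2 and Dsg3, the desmocollins Dsc2 and Dsc3, the plakophilins Pkp1, Pkp2 and Pkp3, plakoglobin (Jup), desmoplakin (Dsp) and dystonin (Dst). All 10 had a probe set annotated to 1 gene, among 22180 genes that could be named on the array. Dst, the only hemidesmosome gene of the group, is read by 1 probe set, so its epithelial, muscle and nerve forms are not told apart here. The samples are mouse mammary stem cell lines made by CRISPR and grown as organoids, 3 wild-type (WT) and 3 Mll3-null, with no treatment, promoter, Cre driver or animal age named in the labels. MLL3, encoded by Kmt2c, is an enhancer-associated histone methyltransferase, and the question put by the study is what its deletion does to these cells. Each array is called a biological replicate, but whether replicates are separate lines or separate cultures of a line is not said, so every p-value below measures the spread between these arrays only.

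Values are log2 expression per probe set, which allow a gene to be compared across arrays but not with another gene, and the small number of arrays limits the precision. Mll3-null replicate 3 stood apart from all others: 294 genes lay over 1 log2 unit below every other array there, 1.33% of those tested, against 1 to 24 genes for each other array. Kmt2c mRNA was at 6.01 ± 0.55 on the WT arrays and 6.11 ± 0.29 on the Mll3-null arrays (log2, SD, n = 3 each), and since the position of its probe set against the altered part is not known here, that level does not check the labels. The cells were checked against 10 basal mammary markers, all measured. The mean of that list, as a deviation from its 6-array mean, was 0.031 to 0.34 on the WT arrays and 0.35, 0.61 and -1.59 in Mll3-null replicates 1 to 3. The list was uneven on that last array. Against the mean of the other 5, Krt14, Krt17, Trp63, Acta2 and Cdh3 were 3.09 to 5.59 lower. Myh11, Cnn1, Tagln and Mylk were 0.055 to 0.46 lower, and Oxtr was 2.84 higher. Levels of Myh11, Cnn1, Tagln and Mylk lay between 4.10 and 5.55 on all arrays, so how far they could fall is unclear and their small drops do not show them kept. Of 13 luminal markers 12 were measured, and their mean deviation was -0.36 to 0.090 on the WT arrays and -0.14, 0.051 and 0.37 in Mll3-null replicates 1 to 3. This list too was uneven on Mll3-null replicate 3. Krt8, Krt18, Krt19, Elf5, Kit, Gata3 and Muc1 were 0.26 to 2.88 above the mean of the other 5. Krt7, Cldn3, Cldn4, Epcam and Esr1 were 0.028 to 1.35 below it. The groups did not overlap for Muc1 (difference 2.11 ± 0.64, SE) and Cldn4 (-1.58 ± 0.40), each with adjusted p = 0.84 (limma). Groups did not overlap on the higher side for 5.44% of all genes and on the lower side for 5.31%. Fibroblast, endothelial, leukocyte and adipocyte lists had mean levels between 3.47 and 4.71 on all arrays, where the median gene lay at 5.02, although the leukocyte marker Cd14 alone reached 10.82. The part of these markers in the results below was not tested, and in such bulk RNA fewer cells of a type and less RNA per cell cannot be told apart.

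No difference between Mll3-null and WT cells was detected for any of the 10 genes. With limma's moderated test 0 of 10 had an adjusted p under 0.05, against 0.0% of all genes, and 0 of 10 had an unadjusted p under 0.05, against 4.93%. The groups overlapped for every one of the 10, whereas they did not overlap for 10.7% of all genes. By group means 6 were lower in Mll3-null cells (Dsg3, Dsc3, Dsp, Jup, Pkp1 and Pkp3), against 48.5% of all genes, and 4 were higher (Dsg2, Dsc2, Pkp2 and Dst). The median difference of the 10 was -0.15 log2 units, beside 0.0058 over all genes. Only Dsg3 reached a 2-fold difference of means, on the lower side, as did 0.622% of all genes, and none of the 10 did so on the higher side, against 0.532%. Without Mll3-null replicate 3 the picture turned: 9 of the 10 means, all but that of Jup, were higher in Mll3-null cells, against 50.2% of all genes, the median difference was 0.15, and again 0 of 10 passed (0.0% of all genes).

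**Figure D1:**
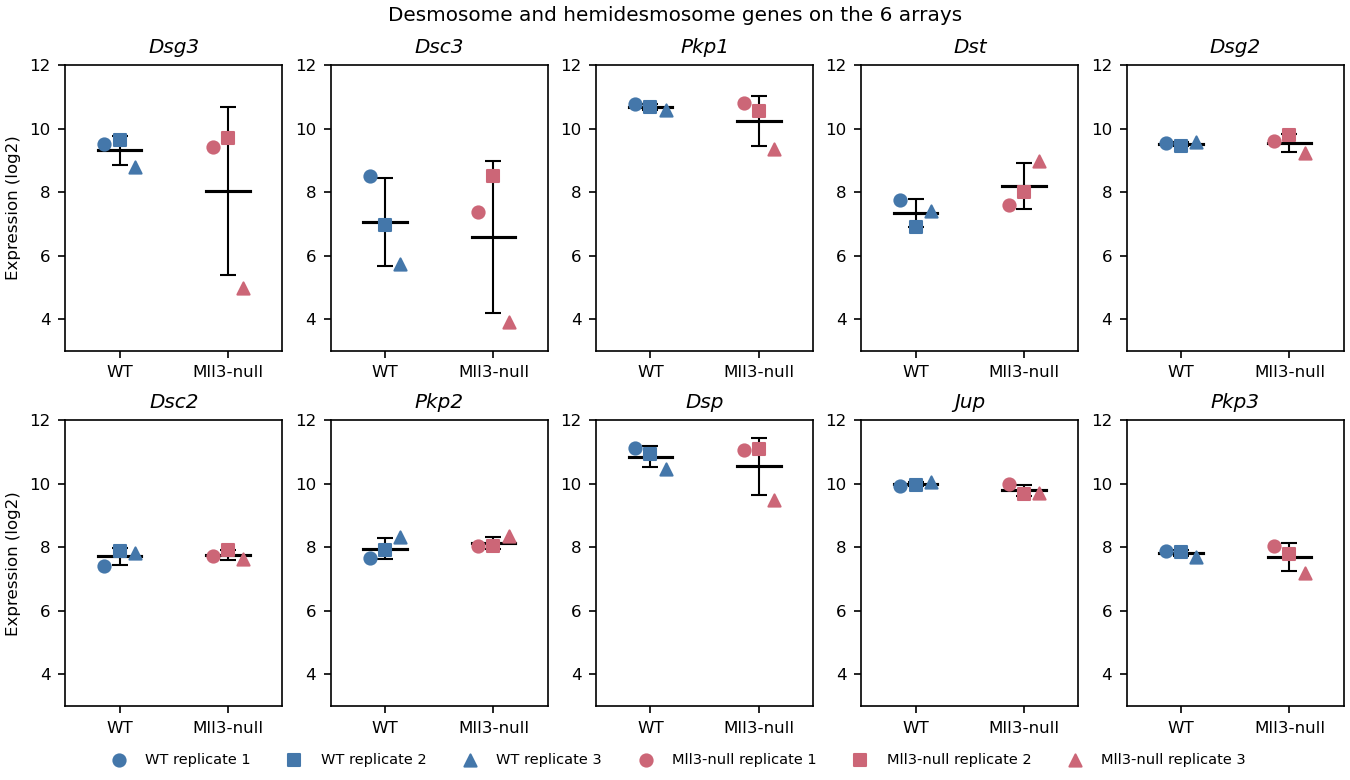
Log2 expression (y axis) of the 10 genes on the WT arrays and Mll3-null arrays, 1 panel per gene, with a point for each array (its replicate number given by the marker), the mean as a bar and the SD as whiskers (n = 3). Dsg3 and Dsc3 drop to 4.98 and 3.92 on Mll3-null replicate 3, while Dst is highest there at 8.98.

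The desmogleins are adhesive cadherins of the junction. Dsg3, the desmoglein of basal layers, was at 9.51, 9.65 and 8.80 in WT replicates 1 to 3 and at 9.42, 9.72 and 4.98 in Mll3-null replicates 1 to 3 (log2, probe set 17348791, chromosome 18). A single array is low: the other 5 lie within 0.92 log2 units of each other, and Mll3-null replicate 3 lies 4.44 below their mean, a 21.7-fold gap that was the 20th lowest among the 22180 genes. The group difference was therefore wide, -1.28 ± 1.22 (SE), its 95% interval running from -4.20 to 1.65 (adjusted p = 0.85, limma). Without that array the difference was 0.25 ± 0.27, with an interval from -0.41 to 0.91.

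Dsg2, the desmoglein found in nearly all epithelia, was at 9.54, 9.46 and 9.57 on the WT arrays and at 9.60, 9.79 and 9.25 on the Mll3-null arrays (log2, probe set 17348812). Mll3-null replicate 3 was again the lowest, but by 0.21 log2 units below the next array. The difference between the groups was 0.028 ± 0.15 (SE), with an interval from -0.33 to 0.38 that leaves out a 2-fold change in either direction (adjusted p = 0.97, limma). A second, dim probe set of Dsg2 read 3.68 to 4.04 on the 6 arrays and was not used.

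Among the desmocollins, the partner cadherins of the desmogleins, Dsc3 was the most variable of the 10 genes among WT arrays. It was at 8.50, 6.97 and 5.73 in WT replicates 1 to 3, and at 7.37, 8.51 and 3.92 in Mll3-null replicates 1 to 3 (log2, probe set 17352913, chromosome 18). The WT arrays alone span 2.77 log2 units, and their SD of 1.39 was at percentile 99.9 of all genes. On Mll3-null replicate 3 Dsc3 lay 3.50 below the mean of the other 5 arrays, or 11.3-fold. The group difference of -0.47 ± 1.25 (SE) came with an interval of -3.47 to 2.53 (adjusted p = 0.95, limma), so that neither a large loss nor a large gain could be told from no change. Its sign turned without Mll3-null replicate 3 (0.87 ± 0.79) and without WT replicate 1 (0.24).

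Dsc2, the widely expressed desmocollin, was at 7.42, 7.89 and 7.84 on the WT arrays and 7.71, 7.92 and 7.65 on the Mll3-null arrays (log2, probe set 17352933). The Mll3-null values all fall inside the WT range except Mll3-null replicate 2, which exceeds it slightly. Its difference was 0.046 ± 0.15 (SE) with an interval from -0.32 to 0.41 (adjusted p = 0.96, limma).

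These 4 cadherin genes lie in 1 cluster on mouse chromosome 18, which by the GRCm38.p6 gene table holds 9 protein-coding genes in the order Dsc3, Dsc2, Dsc1, Dsg1c, Dsg1a, Dsg1b, Dsg4, Dsg3 and Dsg2. The low values of Dsc3 and Dsg3 on Mll3-null replicate 3 were not shared by Dsc2 and Dsg2, their neighbours in the cluster. Dsc3 and Dsg3, near its opposite ends, were 3.50 and 4.44 log2 units below the mean of the other arrays, while Dsc2, next to Dsc3, was 0.11 below it and Dsg2, next to Dsg3, 0.34 below it. The genes in between, cadherins of the upper epidermis and hair, were dim, with 6-array means from 3.15 for Dsg1c to 4.04 for Dsg1b. They differed by -0.30 to 0.060 between that array and the other 5. At such levels how far they could fall is unclear, so their small differences do not show them kept. Dsg1a, Dsg1b and Dsg1c are close copies, and how far their probe sets tell them apart is uncertain. The 227 genes of chromosome 18 with a mean above 6 had a median deviation of 0.010 on Mll3-null replicate 3.

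**Figure D2:**
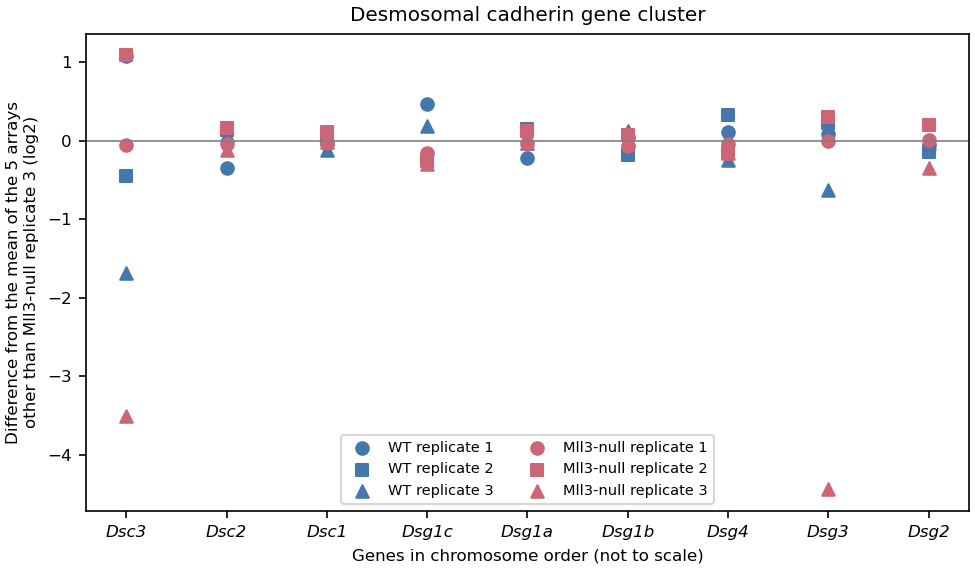
Difference of each array from the mean of the 5 arrays other than Mll3-null replicate 3 (y axis, log2) for the 9 genes of the desmosomal cadherin cluster in chromosome order (x axis, not to scale); blue points are WT arrays, red points Mll3-null arrays, and the marker gives the replicate. Only Dsc3 (-3.50) and Dsg3 (-4.44) are far below 0 on Mll3-null replicate 3, and their neighbours Dsc2 (-0.11) and Dsg2 (-0.34) are not.

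The plakophilins are armadillo proteins that gather cadherins and desmoplakin into the plaque. Pkp1, the plakophilin of layered epithelium, was at 10.78, 10.70 and 10.58 on the WT arrays and 10.83, 10.56 and 9.36 on the Mll3-null arrays (log2, probe set 17227384, chromosome 1). On 5 arrays it was nearly constant, within 0.26 log2 units, and on Mll3-null replicate 3 it was 1.33 below their mean, or 2.51-fold. The group difference was -0.43 ± 0.36 (SE; interval -1.31 to 0.44; adjusted p = 0.85, limma), and 0.011 ± 0.13 without that array. For Pkp1 the interval without that array, -0.30 to 0.32, leaves out a change of 2-fold either way. That holds only once the lowest array is left out, and the interval over all 6 arrays takes in a 2-fold loss.

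Pkp2, the plakophilin of simple epithelium and heart, was at 7.65, 7.91 and 8.33 on the WT arrays and 8.03, 8.03 and 8.36 on the Mll3-null arrays (log2, probe set 17323302, chromosome 16). Here Mll3-null replicate 3 was the highest array, by 0.034 above WT replicate 3. The difference of 0.18 ± 0.19 (SE) was within the spread of the WT arrays (interval -0.28 to 0.64; adjusted p = 0.87, limma). Pkp3, present in most epithelia, was at 7.88, 7.86 and 7.70 on the WT arrays and 8.06, 7.80 and 7.20 on the Mll3-null arrays (log2, probe set 17484731, chromosome 7). Mll3-null replicate 3 was lowest once more, 0.66 below the mean of the others, and the group difference was -0.13 ± 0.22 (SE; adjusted p = 0.91, limma).

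Plakoglobin, the plaque protein that desmosomes share with adherens junctions, varied least of the 10 genes across the 6 arrays. Jup was at 9.93, 9.97 and 10.05 on the WT arrays and 10.004, 9.70 and 9.71 on the Mll3-null arrays (log2, probe set 17269464, chromosome 11). Mll3-null replicates 2 and 3 lay below all WT arrays, and replicate 1 lay among them. The difference was -0.18 ± 0.11 (SE, interval -0.45 to 0.091, adjusted p = 0.84, limma). Without Mll3-null replicate 1 it was -0.28 ± 0.0997 (unadjusted p = 0.032, adjusted p = 0.36, limma). In that setting 2742 of all 22180 genes had an unadjusted p under 0.05.

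Desmoplakin is the plakin that every desmosome needs to hold keratin filaments. Dsp was at 11.12, 10.94 and 10.48 on the WT arrays and 11.06, 11.09 and 9.50 on the Mll3-null arrays (log2, probe set 17286641, chromosome 13). Mll3-null replicate 3 was 1.44 below the mean of the other arrays, or 2.71-fold, and WT replicate 3 was the next lowest. The difference was -0.30 ± 0.44 (SE; interval -1.36 to 0.76; adjusted p = 0.90, limma), and 0.23 ± 0.20 without Mll3-null replicate 3.

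Dystonin, the plakin that links hemidesmosomes to keratin in its epithelial form, had its highest value on the array where Dsp had its lowest. Dst was at 7.76, 6.89 and 7.41 on the WT arrays and 7.58, 7.99 and 8.98 on the Mll3-null arrays (log2, probe set 17211587, chromosome 1). Mll3-null replicates 2 and 3 lay above all WT arrays and replicate 1 lay within the WT range. Its difference of 0.83 ± 0.39 (SE), or 1.78-fold higher by means, ran in its 95% interval from -0.097 to 1.76 (unadjusted p = 0.072, adjusted p = 0.84, limma). It was 1.14 ± 0.36 without Mll3-null replicate 1 (unadjusted p = 0.021, adjusted p = 0.31, limma) and 0.43 ± 0.27 without Mll3-null replicate 3. Without Mll3-null replicate 1, 2 of the 10 genes (Dst and Jup) had an unadjusted p under 0.05, as did 2742 of all 22180 genes. Dst was 1.46 above the mean of the other arrays on Mll3-null replicate 3, the 207th highest such gap among all genes. Dst and Pkp1 both lie on chromosome 1, whose 510 genes with a mean above 6 had a median deviation from the 6-array median of 0.30 on that array and 0.091 on Mll3-null replicate 2, against -0.063 to 0.0095 on the other 4. The part of that shift in the value of Dst was not tested, and Pkp1 on the same chromosome was low on that array.

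**Figure D3:**
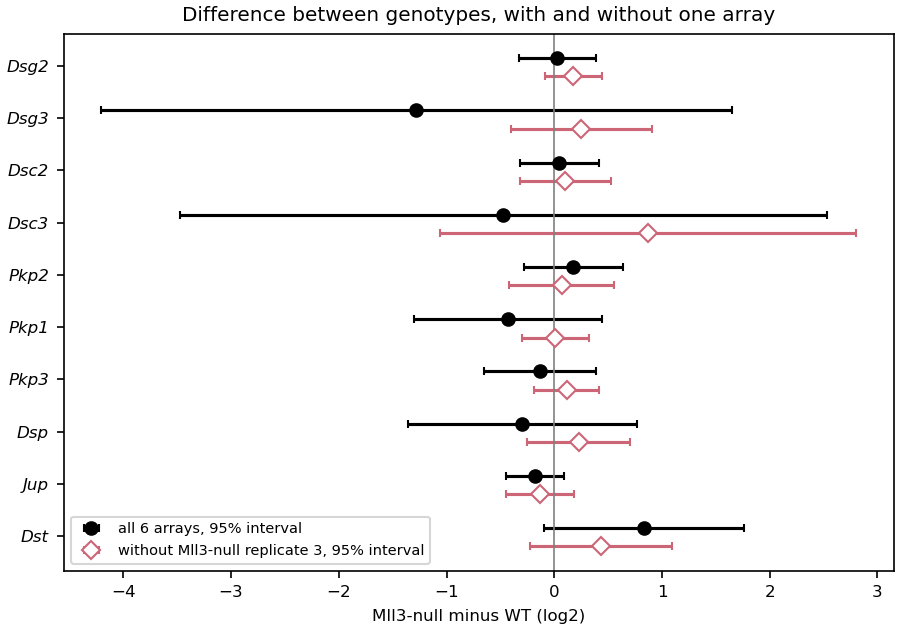
Mll3-null minus WT difference (x axis, log2) for each of the 10 genes (y axis), with 95% intervals from limma, over all 6 arrays (black circles) and without Mll3-null replicate 3 (red diamonds). All intervals include 0, and without that array the difference of Dsg3 goes from -1.28 to 0.25 with a narrower interval.

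Sequence upstream of the start sites is shown for the plakin genes Dsp and Dst, because of these filament linkers Dsp was at its lowest and Dst at its highest on Mll3-null replicate 3 and because Dst has a pair of listed start sites, and which of them its probe set follows is not known here. Of the 10 genes, 3 had an entry in the RefSeq promoter table (build GRCm38.p6): Dsp, Dst and Jup, the last not shown. Each line gives the 250 bases before a start site, on the plus strand, with motif matches in capitals. The motifs searched on both strands were the GC box GGGCGG, the Snail-type E-box CAGGTG, the AP-1 site TGANTCA, the grainyhead site ACCGGTT and the TATA box TATAAA.
Dsp, chr13:38151044-38151293: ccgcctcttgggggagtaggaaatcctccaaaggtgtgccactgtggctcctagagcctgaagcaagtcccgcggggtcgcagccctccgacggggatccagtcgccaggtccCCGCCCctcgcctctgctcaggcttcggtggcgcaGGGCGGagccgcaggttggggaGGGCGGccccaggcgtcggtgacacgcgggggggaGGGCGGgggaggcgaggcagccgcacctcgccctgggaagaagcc
Dst first start site, chr1:34011345-34011594: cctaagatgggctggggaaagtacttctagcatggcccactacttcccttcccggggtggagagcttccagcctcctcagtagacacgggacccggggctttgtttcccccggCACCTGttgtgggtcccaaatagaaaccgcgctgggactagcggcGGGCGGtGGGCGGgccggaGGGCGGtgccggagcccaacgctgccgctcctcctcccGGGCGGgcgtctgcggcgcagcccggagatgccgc
Dst second start site, chr1:34160010-34160259: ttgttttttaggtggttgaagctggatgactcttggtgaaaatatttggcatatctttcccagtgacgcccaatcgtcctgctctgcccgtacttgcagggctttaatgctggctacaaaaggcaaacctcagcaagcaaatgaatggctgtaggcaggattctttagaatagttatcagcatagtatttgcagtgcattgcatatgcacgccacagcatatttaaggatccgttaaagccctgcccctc

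The Dsp window held 4 GC boxes and no other match, with 72.4% G and C bases. The first Dst window was alike, with 4 GC boxes, 1 E-box (read as CACCTG on the strand shown) and 68.8% G and C, and none of the matches overlapped another motif. The second Dst window had 45.2% G and C bases and none of the 5 motifs. Among all 32851 windows of the table, 32.7% held a GC box and 17.2% the E-box, while 6.75% held the AP-1 site, 12.4% the TATA box and 0.83% the grainyhead site. The median window had 52.4% G and C. These matches describe letters only, and which start site was used in these cells was not measured.

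Basal isoforms (Dsg3, Dsc3, Pkp1 and Dst) were next set against general ones (Dsg2, Dsc2 and Pkp2), each gene as its deviation from its own 6-array mean. The basal mean was 0.70, 0.12 and -0.31 on the WT arrays and 0.36, 0.76 and -1.63 in Mll3-null replicates 1 to 3. The mean of the general isoforms was -0.24, -0.023 and 0.14 on the WT arrays and 0.0081, 0.14 and -0.023 on the Mll3-null arrays, where on replicate 3 Pkp2 was 0.37 above the mean of the other arrays and Dsg2 and Dsc2 were 0.34 and 0.11 below it. The basal minus general value was 0.21 ± 0.69 on the WT arrays and -0.21 ± 1.21 on the Mll3-null arrays (SD, n = 3 each), so the groups overlapped and the difference of -0.42 was smaller than either spread. Without Mll3-null replicate 3 it was 0.27 and without WT replicate 1 it was -0.058. Nor did the 4 basal genes go one way: on Mll3-null replicate 3 Dst was at its highest and the other 3 at their lowest, and without Dst the basal mean there was -2.57. Without Dst the basal minus general difference was -0.81, with an SD of 0.80 on the WT arrays and 1.86 on the Mll3-null arrays. It was then no longer smaller than the WT spread, though the groups still overlapped. With Mll3-null replicate 3 also left out it was 0.26.

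Within each family, the basal less general difference on each array gives the same reading gene by gene. Relative to the WT mean, Dsg3 less Dsg2 was 0.016, 0.13 and -4.07 in Mll3-null replicates 1 to 3, against a WT SD of 0.51. Dsc3 less Dsc2 was 0.30, 1.23 and -3.08, against a WT SD of 1.61. For Pkp1 less Pkp2 the values were 0.073, -0.19 and -1.72, against a WT SD of 0.44. Against the WT mean, the basal member was thus low in 3 of 3 families on Mll3-null replicate 3 and in 0 of 3 on replicate 1. On replicate 2 it was low in 1 of 3, where -0.19 was within the WT SD. The WT arrays showed such signs too: on WT replicate 3 the values were -0.57, -1.46 and -0.47, low in 3 of 3 families. On WT replicate 2 only Dsc3 less Dsc2 was low (-0.27), and on WT replicate 1 none was. The group differences of -1.31, -0.52 and -0.61 had exact two-sided permutation p of 0.5, 0.8 and 0.5 (0.75, 0.8 and 0.75 adjusted over the 3 pairs), where 3 against 3 arrays cannot go below 0.1. Without Mll3-null replicate 3 they were 0.072, 0.77 and -0.057, and that of Dsc3 less Dsc2 was also turned, to 0.35, without WT replicate 1.

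**Figure D4:**
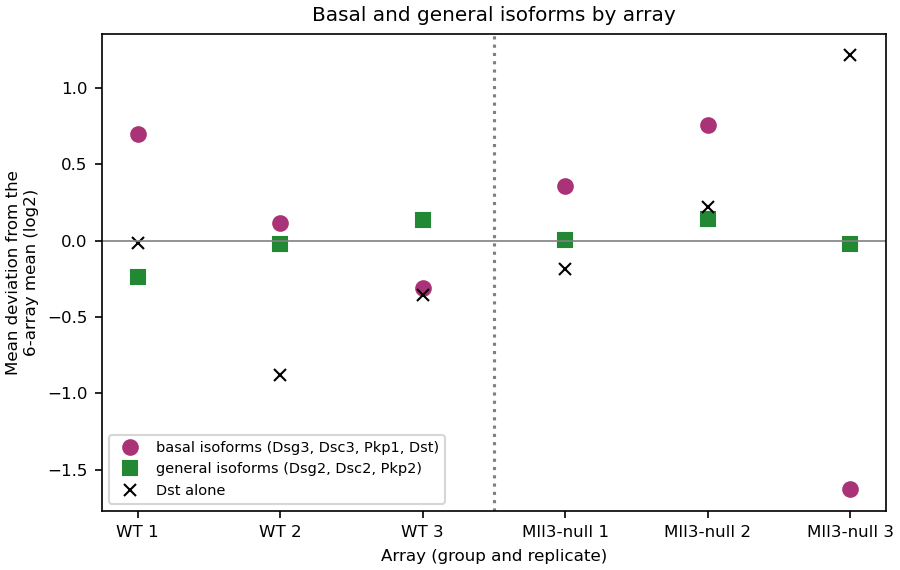
Mean deviation from the 6-array mean (y axis, log2) of the basal isoforms (purple circles) and the general isoforms (green squares) on each array (x axis), with Dst alone as crosses; the dotted line parts WT from Mll3-null arrays. The mean of the general isoforms lies between -0.24 and 0.14, while the basal mean runs from 0.76 on Mll3-null replicate 2 to -1.63 on Mll3-null replicate 3, where Dst is high.

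Spread over arrays was uneven among the genes. Mll3-null replicate 3 was the lowest array for 6 of the 10 (Dsg2, Dsg3, Dsc3, Dsp, Pkp1 and Pkp3), as for 21.4% of all genes, and the highest for Pkp2 and Dst, as for 24.4%. Dsg3, Dsc3 and Pkp1 were over 1 log2 unit below every other array there, a position held by 1.33% of genes. Mll3-null replicate 2 was the highest array for 4 of the 10 (Dsg2, Dsg3, Dsc2 and Dsc3), as for 14.1% of all genes. On the 5 other arrays 8 of the 10 genes stayed within 1 log2 unit (94.3% of all genes), the exceptions being Dsc3 and Dst. WT replicate 3 departed from WT replicates 1 and 2 on the same side as Mll3-null replicate 3 from its group for 7 of the 10 genes, against 56.2% of all genes. It was 2.01 below them for Dsc3, 0.78 for Dsg3 and 0.55 for Dsp, and 0.55 above them for Pkp2.

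Other desmosome genes were measured for all 10 listed, and 0 passed the test in either direction (4 means higher, 6 lower, median -0.094). Perp, a p53- and p63-regulated tetraspan protein of desmosomes, was at 11.37 to 11.84 on 5 arrays and at 9.80 on Mll3-null replicate 3. Periplakin (Ppl), a plakin of the cell cortex, was likewise at 7.74 to 7.997 and then 6.59. Pkp4, a relative of the plakophilins, was at 8.04 to 8.52 and then 7.02 (named after its values were seen). These 3 were the list's members over 1 unit below every other array, and their group differences were -0.75 ± 0.46, -0.46 ± 0.35 and -0.40 ± 0.35 (SE). Dsg1c, dim throughout, had the smallest p of the list (difference -0.37 ± 0.18, adjusted p = 0.84, limma).

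Of 8 listed hemidesmosome genes and their matrix partners 7 were measured, and 0 passed the test (1 mean higher, 6 lower, median -0.22). Col17a1, the transmembrane collagen of hemidesmosomes, was at 10.02, 9.81 and 9.23 on the WT arrays and 9.85, 9.91 and 5.31 on the Mll3-null arrays (named after its values were seen). Lama3, a chain of a basement membrane laminin, was at 8.68 to 9.17 on 5 arrays and at 5.43 on Mll3-null replicate 3, and the integrin Itgb4 was at 9.72 to 10.63 and then 7.95. Itga6, the partner of Itgb4, was not low there: it was at 10.71 to 10.88 on the WT arrays and 10.95, 11.00 and 11.22 on the Mll3-null arrays, higher on all 3 with no overlap (difference 0.28 ± 0.11, unadjusted p = 0.038, adjusted p = 0.84, limma). Groups did not overlap on the higher side for 5.44% of all genes. On Mll3-null replicate 3 Itga6 was 0.36 above the mean of the other arrays, against 1.46 for Dst. The tetraspanin Cd151 differed by -0.22 ± 0.13 (SE). The laminin chain Lamb3 and plectin (Plec) were only 0.14 and 0.62 below the mean of the other arrays on Mll3-null replicate 3 (named after their values were seen).

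Keratins, the filaments that both junctions anchor, were measured for 10 of 11 listed, and 0 passed the test (4 means higher, 6 lower, median -0.40, and 0.095 without Mll3-null replicate 3). Krt6a was at 9.71 to 11.65 on 5 arrays and at 4.19 on Mll3-null replicate 3, the lowest such gap of all genes, and Krt14 and Krt17 were 5.59 and 5.41 below the mean of the others. Krt6b and Krt16 were 1.77 and 2.30 below it. The simple-epithelial keratins did not go one way on that array: Krt8, Krt18 and Krt19 were 0.26, 0.51 and 0.36 above the mean of the others and Krt7 was 0.92 below it, while Krt15, a keratin of basal cells, was 0.13 below it (genes outside the naming rule are given here after their values were seen, so that all 10 are accounted for). Krt6b and Krt7 had the smallest p of the list, with differences of -1.87 ± 0.90 and -0.77 ± 0.38 (SE).

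Adherens junction genes, measured for all 10 listed, had a lower mean in all 10, against 48.5% of all genes (median -0.18, and -0.0038 without Mll3-null replicate 3). None passed the test. E-cadherin (Cdh1) was at 10.81, 11.03 and 10.96 on the WT arrays and 10.83, 10.52 and 10.44 on the Mll3-null arrays (difference -0.34 ± 0.13, unadjusted p = 0.038, adjusted p = 0.84, limma). P-cadherin (Cdh3), the basal classical cadherin, was at 9.38 to 10.03 on 5 arrays and at 6.08 on Mll3-null replicate 3 (named after its values were seen). Afdn, the nectin-binding scaffold, differed by -0.17 ± 0.077 and p120-catenin (Ctnnd1) by -0.18 ± 0.10 (SE). For Afdn the groups did not overlap, as on the lower side for 5.31% of all genes.

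Transcription factors known to act on epithelial adhesion genes were measured for 12 of 13 listed, with 0 past the test (6 means higher, 6 lower, median -0.16). Trp63, the p63 gene of basal cells, was at 8.79, 8.04 and 7.86 on the WT arrays and 8.84, 8.25 and 5.02 on the Mll3-null arrays, and Snai2 was at 9.74 to 10.53 on 5 arrays and 5.99 on Mll3-null replicate 3 (both named after their values were seen). Grhl2, a grainyhead factor of epithelia, was at 7.38 to 7.55 on the WT arrays and 7.61, 7.75 and 7.88 on the Mll3-null arrays, with no overlap (difference 0.26 ± 0.11, unadjusted p = 0.044, adjusted p = 0.84, limma). Snai1, a repressor of E-cadherin, was also higher with no overlap and differed by 0.38 ± 0.17, and Grhl3 differed by -1.06 ± 0.67 (SE). Grhl2 and Snai1 were 2 of the 12 without overlap on the higher side, against 5.44% of all genes. On Mll3-null replicate 3, 5 of the 12 lay over 1 log2 unit below every other array, a position held by 1.33% of all genes. They were Trp63, Snai2, Grhl3, Klf4 and Klf5 (Klf4 and Klf5 named after their values were seen). The low values of these factors fall on the same array as those of Dsg3, Dsc3 and Pkp1, and the part of the factors in them was not tested.

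**Figure D5:**
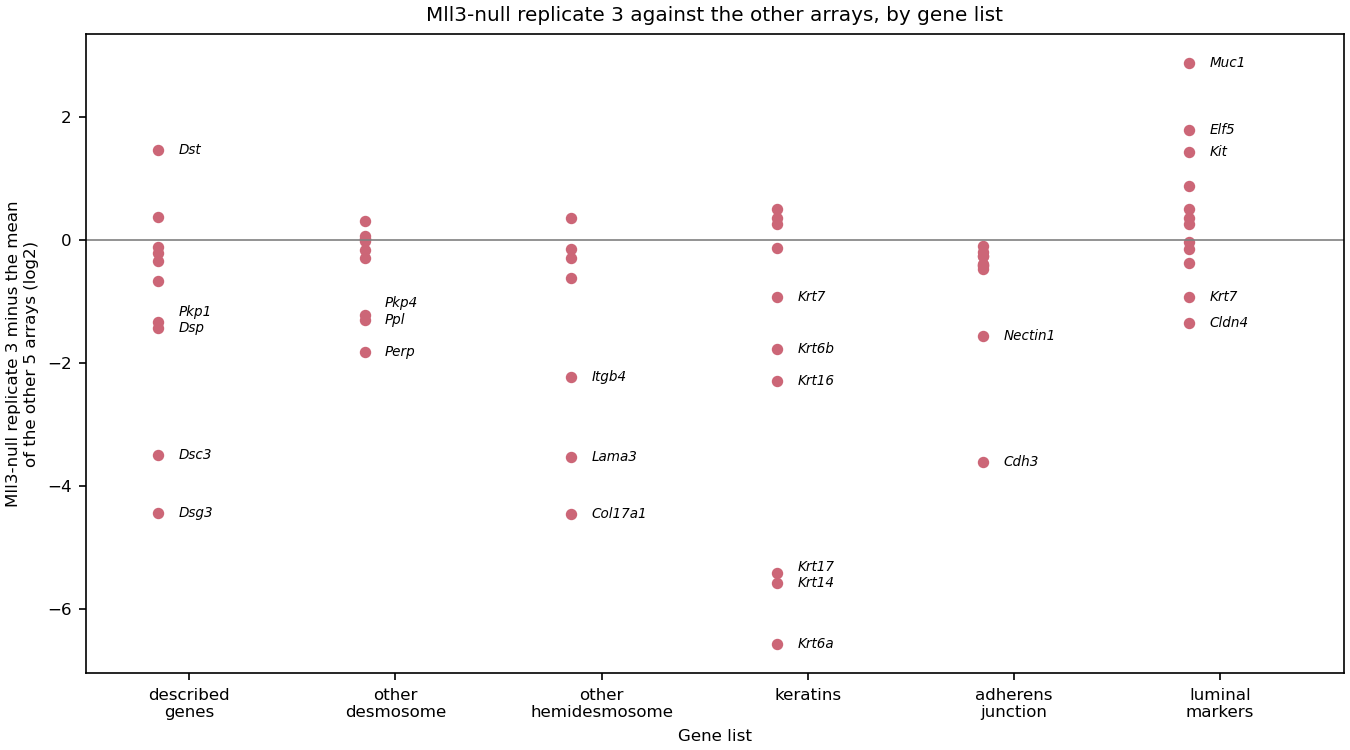
Mll3-null replicate 3 minus the mean of the other 5 arrays (y axis, log2) for each gene of 6 lists (x axis), with the genes farthest from 0 named. Dsg3 (-4.44) and Dsc3 (-3.50) lie in the range of Col17a1 (-4.45), Lama3 (-3.53) and Cdh3 (-3.60), while Krt6a (-6.58) is lower and Dst (1.46) is above 0.

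The genes nearest to the mean basal profile over the 6 arrays, by root mean square distance between centred values, were Slc6a4 (0.17 log2 units), Duoxa1 (0.22), Bcl11b (0.25), Prkar2b (0.26), Gadd45g (0.26), Lrig3 (0.27), Frmd4b (0.27) and Fam83b (0.27). The basal profile is lowest on Mll3-null replicate 3 (-1.63), so the low values of all 8 genes on that array follow from the choice and are no separate result. Bcl11b, a zinc finger transcription factor, serves as an example. It was at 6.58, 6.52 and 5.64 on the WT arrays and 6.67, 6.61 and 4.07 on the Mll3-null arrays. Nearest to the general isoforms were Mfsd4b5 (0.034), Olfr788 (0.040), Rgs8 (0.041) and Tarsl2 (0.041), of which Olfr788 lay below 3 on every array. With so flat a profile, many genes that barely vary come close.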

How the data were processed

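Affymetrix arrays of 6 samples were analysed from the deposited log2 values (1 per probe set and array, 41345 probe sets, 1.72 to 13.56), which the authors made with Affymetrix Expression Console per the submitters' processing notes. For its version, the summarization, the normalization and the build, nothing is given in the sources used here. That the values are log2 was read from their range. With array medians all between 4.35 and 4.40, the values had been scaled alike, and a difference in RNA content per cell would not show. Gene names came from the platform annotation, with symbols updated through gene identifiers; 23521 had 1 symbol, 1814 several, and 16010 were unnamed here. The probe set with the highest 6-array mean stood for each of 22180 genes.

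The genotypes were tested in R 4.3.3 with limma 3.58.1 (lmFit, eBayes, genotype as the only term, two-sided, Benjamini-Hochberg over all 22180 genes, threshold 0.05). On 5 simulated data sets of 22180 genes for the comparison of Mll3-null with WT, it found 68.5% of changes of 2-fold, 89.8% at 4-fold and 94.2% at 8-fold, with 45 false calls in all. Noise was drawn there independently for each gene and array, so no simulated array stood apart as Mll3-null replicate 3 does. These shares therefore do not say how often a change in the 10 genes would be found in the real arrays. Family pairs used an exact permutation test. The genes and lists were chosen with earlier results of these data known. Named were the 10 genes, up to 4 genes of smallest p in each list, and the genes of nearest profile (predicted genes left out); others are marked. Alternatives covered the spread model, array weights, level filters, normalization, probe set choice, threshold, the replicate block and leaving out each array. Some listed genes, Krt5, Zeb2, Prlr and Cfd among them, were not analysed here; Loricrin was read under its older symbol Lor.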

Additional observations from a re-analysis of the deposited data

How the results depend on the processing

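The count of 0 among the 10 genes, and of 0 among all genes, held under every alternative run, including each array left out (range 0 to 0) and a threshold of 0.01. The number of genes with an unadjusted p under 0.05 was 1093, and it became 2504 with array weights, 2742 when Mll3-null replicate 1 was left out and 716 when Mll3-null replicate 2 was. The median difference of the 10 genes, -0.15, was 0.071 with array weights, and -0.30 to 0.15 with an array left out. Array weights were 0.64, 2.75 and 0.52 for Mll3-null replicates 1 to 3, the last being the lowest of all. The weighted Mll3-null mean thus rests mostly on Mll3-null replicate 2. Array weights also turned the differences of Dsc3 (0.57) and Dsp (0.020). Leaving out an array moved the basal minus general difference between -0.84 and 0.27, Dsg3 less Dsg2 between -2.02 and 0.072, Dsc3 less Dsc2 between -1.39 and 0.77, and Pkp1 less Pkp2 between -0.95 and -0.057. For single genes the ranges that crossed 0 were -0.095 to 0.18 for Dsg2, -2.12 to 0.25 for Dsg3, -0.10 to 0.13 for Dsc2, -1.43 to 0.87 for Dsc3, -0.57 to 0.23 for Dsp, -0.72 to 0.011 for Pkp1 and -0.32 to 0.11 for Pkp3. Those of Jup (-0.28 to -0.12), Pkp2 (0.022 to 0.36) and Dst (0.43 to 1.14) did not. Dsg2 became negative without WT replicate 2 or Mll3-null replicate 2, Dsc2 without WT replicate 1 or Mll3-null replicate 2, Dsc3 became positive without WT replicate 1, and the other sign changes came without Mll3-null replicate 3. Under the settings that kept all arrays, 88 of 90 differences of the 10 genes kept their sign, the exceptions being the pair with array weights. Many of these 90 could not differ. The spread model, the level filters and the replicate block leave each difference unchanged by construction, and the probe set choice can alter only Dsg2. Only array weights, quantile normalization and median centring could change the difference of every gene, so the count of 88 says little about robustness.

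Replicate numbers are shared by the groups, but same-numbered arrays deviated together only for number 3 (correlations of 0.035, 0.092 and 0.46 over genes with a mean above 6), and WT replicate 2 correlated best with Mll3-null replicate 1 (0.32), so the numbers were not taken as pairs. With the replicate block 0 genes passed, 0 of the 10 among them, 1290 genes had an unadjusted p under 0.05, and the group differences were unchanged by construction (median -0.15, basal minus general -0.42). With 3 arrays a group, the intervals of Dsg3 (-4.20 to 1.65) and Dsc3 (-3.47 to 2.53) take in changes of over 2-fold in either direction.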

Other observations

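Cornified envelope genes, which mark squamous differentiation, were read as another desmosome-rich program. All 10 listed genes were measured, 8 with a higher mean in Mll3-null cells and 2 with a lower one (median 0.10), and 0 passed the test. Of all 22180 genes 11433 had a higher mean. Among the 8, Krt1, Krt10, Lor and Cnfn differed by only 0.023 to 0.15 (named after their values were seen). Sprr1a, a cornified envelope precursor, was at 7.56 to 8.11 on the WT arrays and 9.31, 9.15 and 8.31 in Mll3-null arrays, with no overlap (difference 1.03 ± 0.29, unadjusted p = 0.0097, adjusted p = 0.84, limma). The groups did not overlap on the higher side for 5.44% of all genes. Krtdap, a keratinocyte differentiation gene, was at 4.95 to 5.13 on the WT arrays and 5.66, 7.66 and 3.72 in Mll3-null replicates 1 to 3, and Sprr1b was at 4.72 to 5.53 and at 6.16, 7.54 and 4.54; both genes were picked with their values in view.

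Beside the desmosomal cadherin cluster on chromosome 18, N-cadherin (Cdh2), a classical cadherin next to Dsc3, was at 8.40, 10.10 and 9.94 on the WT arrays and 9.86, 9.07 and 7.49 in Mll3-null arrays, lowest on Mll3-null replicate 3. Past the other end, B4galt6, a galactosyltransferase gene beyond Ttr, was at 8.40, 7.78 and 8.74 on the WT arrays and 7.94, 9.37 and 9.61 in Mll3-null arrays, highest on that array. Both were chosen with their values known, and neither passed the test between the groups (adjusted p = 0.86 and 0.84, limma).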
